A study of Mus musculus with 17 samples.

Results

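The Hedgehog pathway was followed in the colon through 9 genes, Shh, Ihh, Ptch1, Smo, Gli1, Gli2, Gli3, Hhip and Foxf1. They were taken by gene symbol from the 23719 entries of a table of read counts, and each symbol matched a single entry. In the gut, the secreted ligands Shh and Ihh are made by the epithelium and act on the connective tissue and muscle beneath it. A ligand that binds the receptor Ptch1 releases the membrane protein Smo, and Smo then changes the activity of the transcription factors Gli1, Gli2 and Gli3. Ptch1, Hhip and Gli1 are also targets of the pathway, which is why they are widely used as its readouts, and Foxf1 is a target in the gut mesenchyme.

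Colon RNA was compared between 9 Control mice and 8 GWI mice, all C57BL/6 males aged 32 to 34 weeks. GWI stands for Gulf War illness, which was modelled by pyridostigmine bromide (PB), which reversibly blocks acetylcholinesterase, given in the drinking water at 2 mg/kg for 7 days. PB was then withdrawn for a recovery of 21 days, and tissue was collected at day 30, while Control mice received water alone. The question was which genes still differed in the colon after the recovery. The model holds a single agent, sex and time point, and the tissue was whole colon, so a level sums over all cell types of the wall.

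Sequencing depth was alike, with totals of 16744096 to 20741212 counts in Control colons and 16293537 to 18389686 in GWI colons. The unit of level is CPM, a gene's count for every 1000000 of its library, scaled by TMM, a method that corrects the library sizes for differences in composition. Epithelial genes were abundant in every colon, with a summed level of at least 10336 CPM over 11 genes, as was smooth muscle, with at least 3658 CPM over 10 genes. Some colons stood apart. Control 1 and GWI 5 had far higher summed levels of the distal colon Hox genes than the others of their group, at 129.1 and 88.1 CPM, against at most 15.5 and 18.8 CPM. In Control 9, the 10 most abundant genes took 23.1% of the counts, and its smooth muscle, fibroblast and epithelial sums were the lowest of the Control group. In Control 7, small intestine genes summed to 674 CPM, against at most 251 CPM in the other Control colons. The first part of the sample names was shared by some mice within a group and by none between groups, so whatever it stands for cannot be told apart from the exposure.

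All 9 genes passed the filter on low counts, and each was tested in edgeR by quasi-likelihood, with adjustment over the 14146 genes tested. Ihh was higher in GWI colons compared to Control colons, Smo, Hhip and Foxf1 were lower, and Shh, Ptch1, Gli1, Gli2 and Gli3 did not pass an adjusted p of 0.05. Thus 1 of the 9 genes (11.1%) was called higher, and 3 (33.3%) were called lower. The number called lower was 6 with upper-quartile factors, 0 with the first part of the sample name as a block in limma-voom (1 lower at an unadjusted p under 0.05), and 1 to 5 with a mouse left out. Over all genes tested, 26.8% were called, 13.4% higher and 13.5% lower. The median log2 fold change of the 9 genes was −0.76, and that of all genes tested was −0.06. With upper-quartile scaling in place of TMM, the calls over all genes shifted from 1889 higher and 1903 lower to 1214 higher and 2992 lower. With calls set instead at an unadjusted p under 0.05 with an absolute log2 fold change over 1, none of the 9 genes passed (0 of 9), since every change was under that size, while 2.42% of all genes tested passed. In no member did the GWI values lie wholly apart from the Control values (0 of 9). Over all genes tested such a gap was seen in 2.35%, in 1.83% with GWI higher and in 0.523% with GWI lower.

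**Figure D1:**
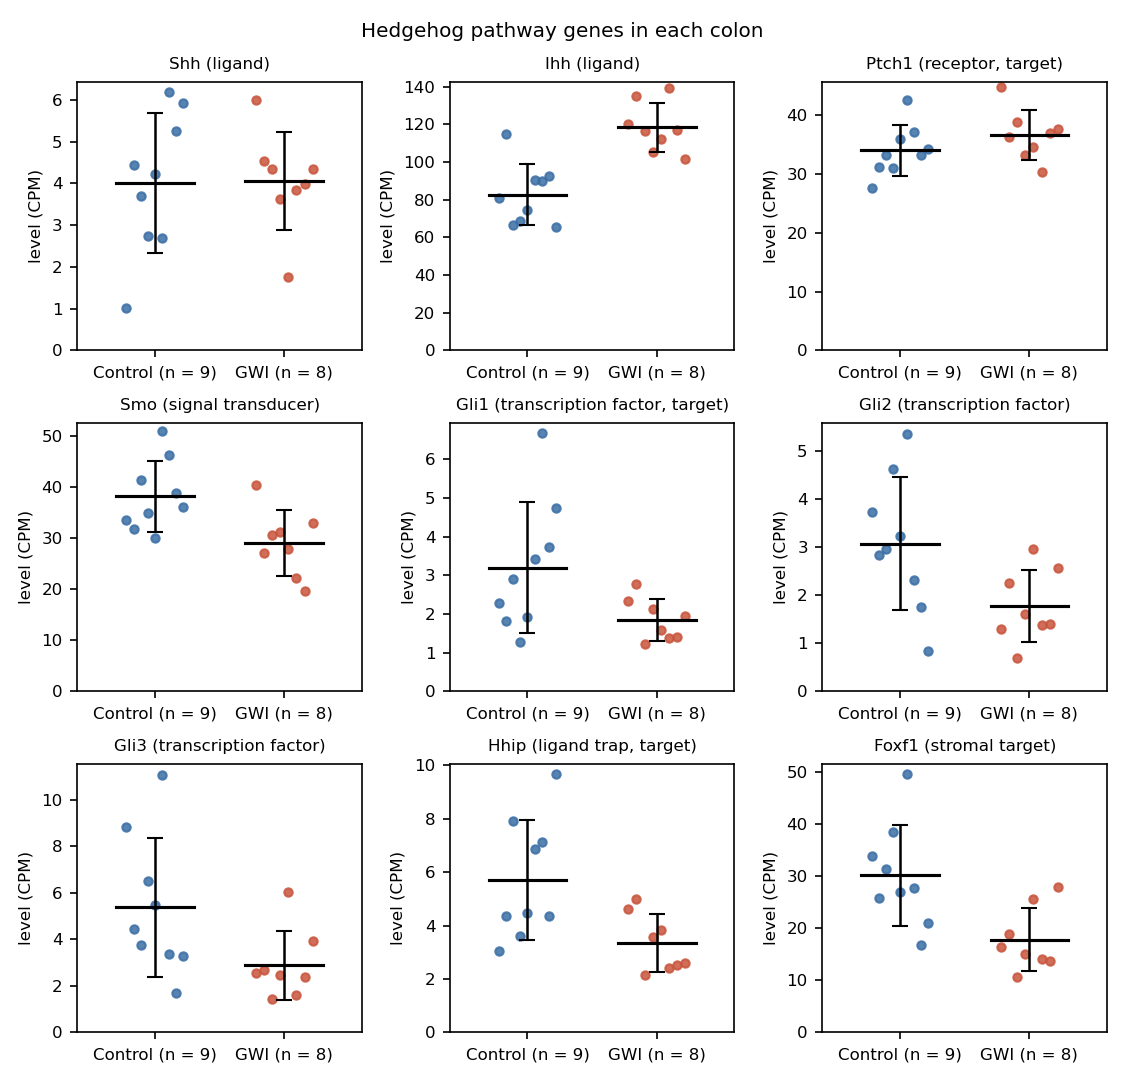
Level of each of the 9 Hedgehog genes in each colon, in CPM, with the role of the gene above each panel. Points are single mice (9 Control, 8 GWI), the long bar is the mean and the error bar the SD. Ihh lies higher in GWI colons, Smo, Hhip and Foxf1 lie lower, and in every panel the groups overlap.

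Both ligands are made by the epithelium, but their levels differed in how they varied. Ihh is the chief Hedgehog ligand of the differentiated colon epithelium. Its level was 65.7 CPM in the lowest Control colon, 80.8 CPM at the median and 115.0 CPM in the highest. In GWI colons it was 101.7 CPM at the lowest, 116.7 CPM at the median and 139.0 CPM at the highest. All 8 GWI colons lay above the Control median and 5 lay above every Control colon, and the single Control colon that reached into the GWI range was Control 2. The mean rose from 82.7 ± 16.1 CPM (SD, n = 9) to 118.4 ± 13.1 CPM (SD, n = 8), a 1.43-fold change. The log2 fold change was 0.52 with a standard error of 0.11 (adjusted p = 0.00400 by edgeR's quasi-likelihood test). The call held without each of the 17 mice in turn, with a log2 fold change between 0.48 and 0.59.

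Shh, the other ligand, is known from the base of the crypts in the adult colon. Its level was 1.01 CPM in the lowest Control colon, 4.22 CPM at the median and 6.18 CPM in the highest. In GWI colons it ran from 1.77 CPM over a median of 4.17 CPM to 5.99 CPM. The groups overlapped almost fully, and 4 GWI colons lay above and 4 below the Control median. The lowest colon of each group, Control 1 with 16 counts and GWI 5 with 28 counts, was the colon with the high distal Hox sum. In these, Hoxa13 was at 71.0 and 75.3 CPM, and in the other 15 colons it was at most 16.1 CPM. The means were 4.01 ± 1.68 CPM (SD, n = 9) and 4.05 ± 1.17 CPM (SD, n = 8), and the log2 fold change was 0.02 with a standard error of 0.28 (adjusted p = 0.971). Its 95% interval ran from −0.57 to 0.60, so a change of moderate size in either direction could not be seen here. Without Control 1 and GWI 5, a setting chosen after the data were seen, it was 0.00 (0.000496) with an adjusted p of 0.999. Annotated transcripts on the opposite strand, 9530036O11Rik and Gm26894, share 15.7% and 12.7% of the exonic bases of Shh, and their reads cannot be told apart from those of Shh where counting ignores strand.

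Ptch1 is the receptor and at the same time a target that rises when the pathway is active. Its level was 27.6 CPM in the lowest Control colon, 33.2 CPM at the median and 42.6 CPM in the highest, and in GWI colons 30.3, 36.6 and 44.8 CPM. Of the 8 GWI colons, 6 lay above the Control median and 1, GWI 1, above every Control colon, so the groups overlapped over most of their range. The means were 34.0 ± 4.29 CPM (SD, n = 9) and 36.6 ± 4.30 CPM (SD, n = 8). The log2 fold change of 0.11 had a standard error of 0.09 and an adjusted p of 0.387.

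Smo passes the signal on once Ptch1 releases it. In Control colons its level was 30.0 CPM at the lowest, 36.0 CPM at the median and 51.1 CPM at the highest, and in GWI colons 19.7, 29.3 and 40.4 CPM. In 7 of 8 GWI colons Smo was below the Control median, and in 4 it was below every Control colon. GWI 1 was the exception above that median. The mean fell 1.32-fold, from 38.2 ± 6.98 CPM (SD, n = 9) to 29.0 ± 6.45 CPM (SD, n = 8), with a log2 fold change of −0.40, a standard error of 0.14 and an adjusted p of 0.0391. This call was near its threshold. It was lost without Control 3, 6, 7 or 8 and without GWI 2, 3, 4, 5, 6 or 7, with log2 fold changes from −0.41 to −0.33 and adjusted p-values from 0.0508 to 0.0814. It was also lost with the first part of the sample name as a random block in limma-voom, at −0.45 (adjusted p = 0.201).

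The transcription factors were read at low counts. Gli1, an activator whose own gene is a target of the pathway, had 23 to 121 counts per Control colon and 23 to 49 per GWI colon. Its level in Control colons was 1.28 CPM at the lowest, 2.91 CPM at the median and 6.68 CPM at the highest, and in GWI colons 1.23, 1.77 and 2.77 CPM. All 8 GWI colons lay below the Control median, and 5 Control colons lay above every GWI colon. The highest was Control 7, the colon with the high small intestine sum. The log2 fold change of −0.78 had a standard error of 0.29 and an adjusted p of 0.0532. It passed without Control 1 (adjusted p = 0.0400), Control 2 (0.0398), Control 4 (0.0286), Control 5 (0.0443) or GWI 2 (0.0446). Without Control 7 the log2 fold change was −0.57 and the adjusted p 0.108, the highest of the 17 fits.

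Gli2 is the main activator that responds first to the signal, and Gli3 acts largely as a repressor when no ligand is bound. Gli2 was at 0.836 CPM in the lowest Control colon, Control 9, at 2.96 CPM at the median and at 5.36 CPM in the highest. GWI colons had 0.698, 1.51 and 2.96 CPM. For Gli3 the Control values were 1.71, 4.43 and 11.1 CPM, and the GWI values 1.45, 2.51 and 6.05 CPM. In both genes 7 of 8 GWI colons lay below the Control median, the highest Control colon was Control 6 and the highest GWI colon was GWI 5. The log2 fold changes were −0.80 with a standard error of 0.32 (adjusted p = 0.0681) for Gli2 and −0.90 with a standard error of 0.34 (adjusted p = 0.0581) for Gli3. Gli2 passed without Control 9 (adjusted p = 0.0187) or GWI 5 (0.0395), and Gli3 without Control 8 (0.0257), Control 9 (0.0431) or GWI 5 (0.0194). Without Control 6 the log2 fold changes were −0.66 and −0.70, with adjusted p-values of 0.131 and 0.123, the highest of the 17 fits for each gene. All of Gli1, Gli2 and Gli3 also passed with the DESeq2 Wald test, at adjusted p-values of 0.0299, 0.0371 and 0.0271.

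Hhip is a membrane protein that binds the ligands and so dampens the signal, and its gene is a target. Its level was 3.03 CPM in the lowest Control colon, 4.46 CPM at the median and 9.69 CPM in the highest, and in GWI colons 2.15, 3.09 and 4.98 CPM. Of the GWI colons 4 lay below every Control colon and 2 above the Control median, and 4 Control colons lay above every GWI colon. The mean fell 1.71-fold, from 5.71 ± 2.25 CPM (SD, n = 9) to 3.34 ± 1.08 CPM (SD, n = 8). The log2 fold change was −0.77 with a standard error of 0.25 (adjusted p = 0.0281). The call was lost without Control 3, GWI 3, GWI 6 or GWI 7, where the adjusted p was 0.0530, 0.0585, 0.0575 and 0.0579 at log2 fold changes of −0.70, −0.70, −0.72 and −0.72. With the block on the sample name it was at −0.78 and did not pass (adjusted p = 0.201).

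Foxf1, a forkhead transcription factor of the gut mesenchyme, had levels of 16.9, 27.8 and 49.7 CPM at the lowest, the median and the highest Control colon. GWI colons had 10.7, 15.7 and 27.9 CPM. Below every Control colon lay 5 of the 8 GWI colons, and only GWI 8 was above the Control median. The mean fell 1.70-fold, from 30.2 ± 9.75 CPM (SD, n = 9) to 17.8 ± 6.04 CPM (SD, n = 8). The log2 fold change of −0.76 had a standard error of 0.21 and an adjusted p of 0.0152, and the call held without each of the 17 mice in turn, with log2 fold changes from −0.89 to −0.64. It was lost with the block on the sample name, at −0.82 (adjusted p = 0.152).

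The spread between mice differed from gene to gene. Ptch1 had a coefficient of variation of 12.6% in Control and 11.8% in GWI colons, Ihh of 19.5% and 11.03%, and Smo of 18.3% and 22.2%. Gli3 varied most, at 55.4% and 51.3%.

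Levels of different genes were compared per kilobase of annotated exon. On this scale Ihh was the most abundant member, with 27.1 ± 5.28 CPM per kilobase in Control (SD, n = 9) and 38.8 ± 4.28 in GWI colons (SD, n = 8). Foxf1 came next at 12.5 and 7.37, then Smo at 6.80 and 5.16, Ptch1 at 2.40 and 2.58, and Shh at 1.41 and 1.42 CPM per kilobase. Gli1, Hhip, Gli3 and Gli2 were the lowest, at 0.640, 0.629, 0.561 and 0.448 in Control and 0.370, 0.368, 0.301 and 0.258 in GWI colons. The order was the same in both groups. In Control colons the lowest Ihh value, 21.5, lay above the highest Foxf1 value, 20.6, and the lowest Smo value, 5.33, above the highest Ptch1 value, 3.00. Foxf1 overlapped with Smo, Ptch1 with Shh, and the last members with each other.

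The members lie on separate stretches of the genome, given here in build GRCm38. Ihh lies on chromosome 1 from 74945315 to 74951672, and Gli2 on the same chromosome from 118834132 to 119053619. Shh lies on chromosome 5 from 28456815 to 28467256, and Smo on chromosome 6 from 29735503 to 29761365. Hhip and Foxf1 share chromosome 8, at 79965851 to 80058006 and at 121084386 to 121088144. Gli1 lies on chromosome 10 from 127329882 to 127341974. Gli3 and Ptch1 share chromosome 13, at 15463235 to 15730026 and at 63508328 to 63573598. Exons of other genes overlap those of Ihh, Ptch1, Smo and Gli2 nowhere (0 genes). Those of Gli1, Gli3, Hhip and Foxf1 share at most 5.31% of their bases with a gene on the opposite strand.

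Ratios between members within each mouse were used to test whether their changes differed, over 11 pairs with an exact permutation test (two-sided, all splits of the mice into 9 and 8, p adjusted over the pairs). The splits treat all mice alike and ignore the first part of the sample name. Colons that share it had a correlation of 0.62 in the fit with that block. No ratio was tested with the block, here or against the marker sums below, so these p-values do not allow for it. The ratio of Ihh to every downstream member tested was higher in GWI colons. Ihh is made by the epithelium and acts on the tissue beneath it, so such a ratio also moves with the tissue make-up of a sample. The 11 epithelial genes had median sums of 13742 CPM in Control and 17511 CPM in GWI colons. For the 10 smooth muscle genes these were 11584 and 5142 CPM. The ratio of these sums was not tested. For Ihh to Foxf1 the mean log2 ratio was 1.48 ± 0.55 (SD, n = 9) in Control and 2.76 ± 0.53 (SD, n = 8) in GWI colons, a difference of 1.28 (exact permutation p = 0.000658, adjusted p = 0.00181). In 6 of 8 GWI colons it lay above every Control colon. For Ihh to Hhip the difference was 1.19 (exact adjusted p = 0.00121), with 7 of 8 GWI colons above every Control colon. Ihh rose against Gli1, Gli2 and Gli3 by 1.09, 1.14 and 1.27 (exact adjusted p = 0.00219, 0.00394 and 0.00594), with 4, 5 and 3 GWI colons above every Control colon. The difference was 0.93 for Ihh to Smo (exact adjusted p = 0.00121, 5 of 8 above) and 0.42 for Ihh to Ptch1 (exact adjusted p = 0.0104, 2 of 8 above).

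Ptch1 was also set against Smo and Hhip. The log2 ratio of Ptch1 to Smo rose by 0.51 (exact adjusted p = 0.00121, 5 of 8 GWI colons above every Control colon). That of Ptch1 to Hhip, both targets of the pathway, rose by 0.77 (exact adjusted p = 0.00219, 7 of 8 above). The ratios of Gli1 to Gli2 and of Gli1 to Gli3 did not pass, with differences of 0.05 and 0.18 (exact adjusted p = 0.906 and 0.767).

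A relation between ligand and targets was sought from mouse to mouse within each group, over 8 relations of Ihh with Ptch1, Gli1, Hhip and Foxf1. None passed (0 of 8), with the smallest unadjusted exact p at 0.368 for Pearson's r and 0.270 for Spearman's rho. In Control colons Pearson's r was 0.08 with Ptch1, 0.05 with Gli1, −0.28 with Hhip and −0.10 with Foxf1 (n = 9, exact permutation p = 0.846, 0.895, 0.473 and 0.804). Spearman's rho was 0.10, −0.03, −0.42 and −0.13 (exact permutation p = 0.810, 0.948, 0.270 and 0.744). In GWI colons r was −0.22, 0.01, 0.15 and −0.37 (n = 8, exact permutation p = 0.606, 0.982, 0.718 and 0.368). Spearman's rho was −0.14, 0.00 (4.2e-17), 0.07 and −0.36 (exact permutation p = 0.752, 1.0, 0.882 and 0.389). The adjusted p was 0.982 for every r and 1.0 for every rho. Without the 2 mice farthest from the median of Ihh, r moved to 0.42, 0.70, 0.09 and −0.25 in Control and to 0.60, −0.31, 0.14 and −0.58 in GWI colons, so these relations rested on few mice.

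The members fell into sets by their pattern over the 17 mice, given as a description. Gli2, Gli3 and Foxf1 ran together, with Pearson's r of 0.85 between Gli2 and Gli3, 0.89 between Gli2 and Foxf1 and 0.92 between Gli3 and Foxf1. With the group means removed, these were 0.80, 0.87 and 0.89. Gli1 and Hhip formed another pair, with r at 0.81, and at 0.73 with group means removed, while Gli1 and Gli2 did not run together (0.03 and −0.28). Shh ran opposite to Gli3, at −0.64 and −0.70, with Spearman's rho at −0.51. Control 1 and GWI 5, the lowest in Shh of their groups, had Gli3 at 8.84 and 6.05 CPM. The group medians of Gli3 were 4.43 and 2.51 CPM. For this pair r was not computed without these colons.

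The genes most like each member over the 17 mice, by Pearson's r of log2 CPM, differed between these sets. A gene picked this way tends to share the difference between groups with its member, so its own change is not a further result. For Ihh they were Casp9 (0.90), Brd1 (0.89) and Marveld2 (0.89), and with group means removed r was 0.74, 0.69 and 0.68. For Shh they were Ugt2b35 (0.97), Hoxb9 (0.96) and Casp6 (0.96). Without Control 1 and GWI 5 these were 0.95, 0.86 and 0.84. For Foxf1 they were Lhfp (0.98), Msrb3 (0.97) and Cd109 (0.97), and with group means removed r was 0.97, 0.95 and 0.94. Gli3 was most like Zeb1 (0.97), Pkd2 (0.97) and the smooth muscle gene Synpo2 (0.97), and Gli2 like Efemp2 (0.96), Six5 (0.95) and Ckm (0.95). Gli1 was most like Zscan12 (0.93), Abcg3 (0.85) and Tarsl2 (0.85), and Hhip like Glt8d1 (0.89), Ska2 (0.89) and Lims1 (0.87). Ptch1 was most like Zfp462 (0.84), Rab38 (0.83) and Rbbp8nl (0.80), and Smo like Ppt1 (0.88), Ccdc157 (0.85) and Ppat (0.85).

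Other genes of the pathway were followed in lists set by their role, and the shares called are to be read beside the 13.4% higher and 13.5% lower over all genes tested. Of the genes for release of the ligand, 1 of 6 tested was higher and 1 lower (16.7% each). Disp1, which lets the lipid-modified ligand leave the cell that makes it, ran from 5.87 over a median of 7.90 to 9.30 CPM in Control and from 8.74 over 10.9 to 13.0 CPM in GWI colons. As with Ihh, most GWI colons (6 of 8) lay above every Control colon. Its log2 fold change was 0.45 with a standard error of 0.12 (adjusted p = 0.0111). Scube2, a secreted protein that carries the ligand away, was lower, at a median of 2.93 CPM in GWI and 6.91 CPM in Control colons, with a log2 fold change of −1.05, a standard error of 0.35 and an adjusted p of 0.0367. That call was lost without Control 2, 4 or 6 or GWI 1, 2, 3, 4, 6 or 7, with log2 fold changes from −1.04 to −0.78 and adjusted p-values from 0.0510 to 0.0820. The block on the sample name in limma-voom ended both calls, at adjusted p-values of 0.140 for Disp1 and 0.155 for Scube2. At an unadjusted p under 0.05, 1 gene of this list was higher and 1 lower, both under the block and by edgeR. The ligand Dhh failed the filter, with a mean of 0.596 CPM in Control and 0.418 CPM in GWI colons.

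Of the receptors and coreceptors, 3 were tested and 1 was lower (33.3%). Gas1, a coreceptor that aids binding of the ligand, was at a median of 38.7 CPM in Control and 22.3 CPM in GWI colons, with overlapping ranges. Its log2 fold change was −0.95 with a standard error of 0.30 (adjusted p = 0.0274). The call was lost without Control 6 (adjusted p = 0.0566) or GWI 1 (0.0509), 3 (0.0563), 4 (0.0506) or 6 (0.0562), and with the block on the sample name in limma-voom (0.143). The coreceptors Boc and Cdon were at 0.25 and −0.18 (adjusted p = 0.145 and 0.624), and Lrp2 failed the filter.

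Smo works at the primary cilium, and of 11 genes that act with it there or on its level, 3 were lower (27.3%) and 1 higher (9.09%). Evc and Evc2, partners of Smo at the base of the cilium, and Efcab7, which holds them there, had log2 fold changes of −0.82, −0.83 and −0.81 (adjusted p = 0.0428, 0.0212 and 0.0120). Mgrn1, a ubiquitin ligase that lowers Smo at the cell surface, was higher at 0.38 (adjusted p = 0.0471). Evc2 and Efcab7 passed without each mouse in turn. Evc was lost without Control 1 to 6 or GWI 1, 2, 3, 4, 6 or 7, at adjusted p-values from 0.0546 to 0.0843. Mgrn1 was lost without Control 2, 3, 4, 5, 7 or 8 or GWI 1 to 7, at adjusted p-values from 0.0534 to 0.0855. The intraflagellar transport genes Ift88 and Kif3a, which build the cilium in all ciliated cells, were at −0.02 and −0.25 (adjusted p = 0.914 and 0.0909). Under the block on the sample name in limma-voom, Evc, Evc2, Efcab7 and Mgrn1 did not pass (adjusted p = 0.199, 0.124, 0.131 and 0.155). The median log2 fold change of the 11 genes was then −0.24, against −0.25 by edgeR. At an unadjusted p under 0.05, 3 were lower and 1 higher under the block, against 5 and 3 by edgeR.

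Among 10 regulators of the Gli proteins, 2 were lower (20%) and 1 higher (10%). Kif7, a kinesin of the ciliary tip, and the kinase Stk36 were lower, at −0.87 and −0.86 (adjusted p = 0.0193 and 0.00833), both at mean levels under 2 CPM (1.71 and 0.923 CPM in Control colons). The kinase gene Gsk3b, which has many roles outside the pathway, was higher at 0.23 (adjusted p = 0.0275), and was lost without Control 5 (0.0547) or GWI 7 (0.0614). Sufu, the main restraint on the Gli proteins, was at −0.03 (adjusted p = 0.920). With the block on the sample name in limma-voom, Kif7, Stk36 and Gsk3b did not pass (adjusted p = 0.123, 0.141 and 0.215). At an unadjusted p under 0.05, 2 of the 10 genes were lower and 0 higher under the block, against 2 and 1 by edgeR.

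Of 15 further genes described as targets, 5 were lower (33.3%, against 13.5% over all genes) and none was higher by edgeR (0 of 15, also 0 at an unadjusted p under 0.05). The mesenchymal forkhead gene Foxf2, the closest relative of Foxf1, fell from a median of 15.7 CPM to 8.12 CPM. Its log2 fold change was −0.91 with a standard error of 0.20 (adjusted p = 0.00437). Bcl2 (−0.55, adjusted p = 0.00508), the cyclin gene Ccnd2 (−0.42, adjusted p = 0.00994), the nuclear receptor gene Nr2f2 (−0.36, adjusted p = 0.0130) and Rab34 (−0.76, adjusted p = 0.0287) were the others. Rab34 was lost without Control 4 or 6 or GWI 1, 2, 3 or 6, at adjusted p-values from 0.0532 to 0.0590. With the block on the sample name in limma-voom, all 5 calls were lost (0 of 15, with 6 lower at an unadjusted p under 0.05). Foxf2 was then at −0.85, Bcl2 at −0.53, Ccnd2 at −0.37, Nr2f2 at −0.38 and Rab34 at −0.83 (adjusted p = 0.105, 0.0797, 0.108, 0.105 and 0.133). The list's median log2 fold change was −0.36. The growth factor gene Bmp4 was at −0.46 (adjusted p = 0.0900), and Foxl1, a marker of telocytes under the epithelium, at −0.31 (adjusted p = 0.482).

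**Figure D2:**
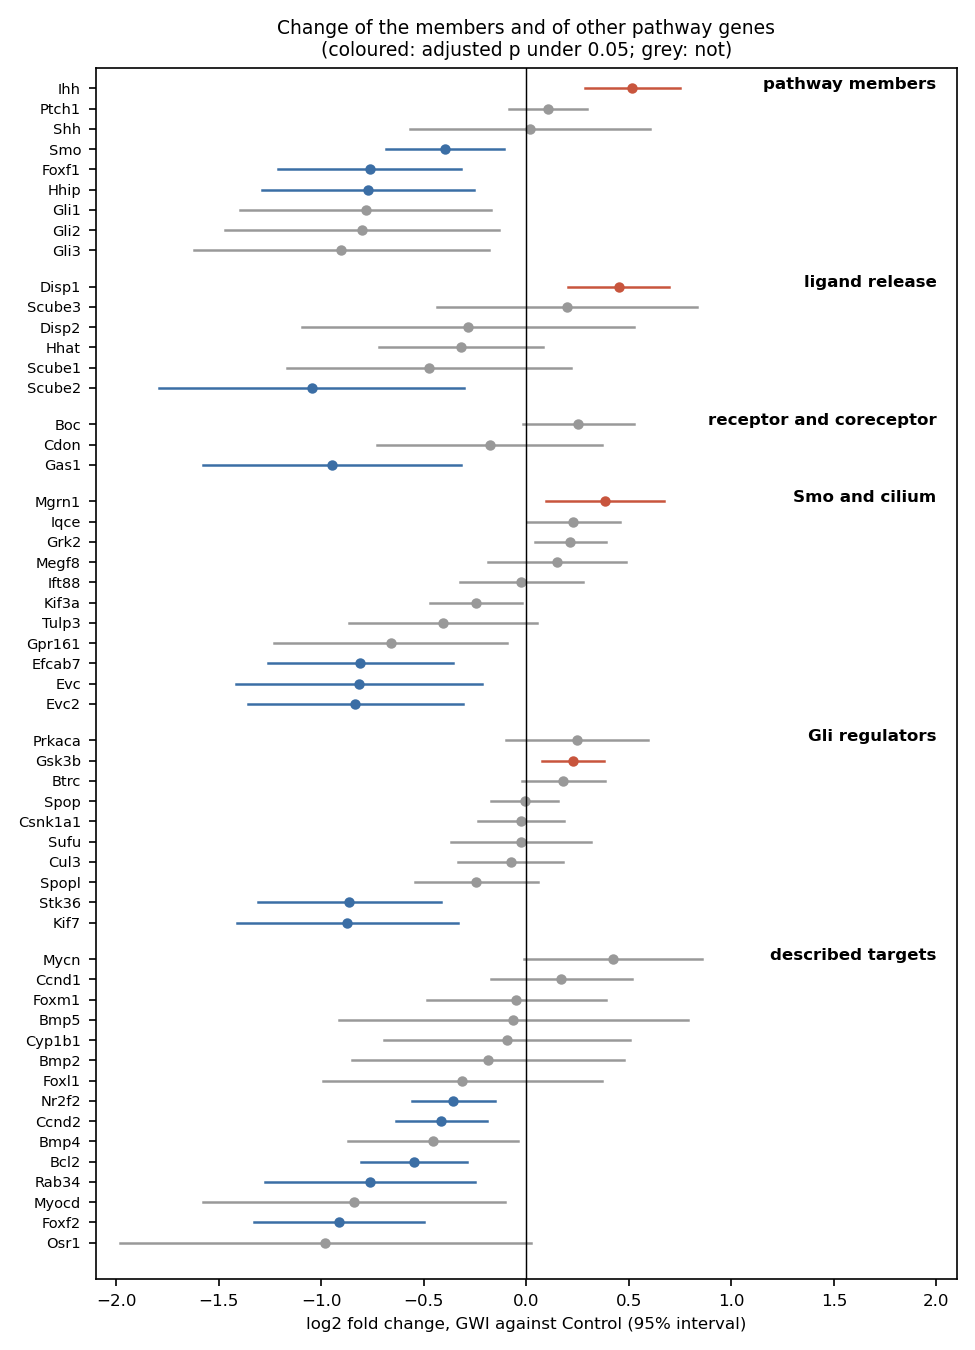
Log2 fold change of GWI against Control colons for the 9 members and for the other pathway genes tested, ordered within each list, with 95% intervals. Red marks genes called higher, blue genes called lower and grey genes that did not pass. Among the other pathway genes 12 are called lower and 3 higher.

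RNA levels of cell type markers moved with the group. In whole tissue, fewer cells of a type and less RNA per cell cannot be told apart. Of 11 epithelial genes 5 were higher and 0 lower (0 at an unadjusted p under 0.05 also), with a median log2 fold change of 0.38. Their summed level was 10336, 13742 and 18828 CPM at the lowest, the median and the highest Control colon, and 14094, 17511 and 19467 CPM in GWI colons. The most abundant was Krt8 (0.40, adjusted p = 0.107), and Cdh1 and Elf3 had the smallest p (0.62 and 0.71, adjusted p = 0.00422 and 0.00430). Without Control 1, 8 of these genes were called higher. With the block on the sample name in limma-voom, 2 were.

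Of 10 smooth muscle genes 7 were lower and 0 higher (0 at an unadjusted p under 0.05 also), with a median of −0.91. Their summed level was 3690, 11584 and 23923 CPM in Control and 3658, 5142 and 11832 CPM in GWI colons. Myh11 was the most abundant (−1.10, adjusted p = 0.0407), and Tagln and Mylk had the smallest p (−1.17 and −0.91, adjusted p = 0.00628 and 0.0150). The calls of Acta2, Myh11, Lmod1 and Smtn lay near the threshold, at adjusted p-values from 0.0407 to 0.0496 by edgeR. The number called dropped to 2 or 3 genes without each of 12 mice, Control 1 to 6 and GWI 1, 2, 3, 4, 6 and 7. It was 2 genes without Control 6, GWI 3, GWI 4, GWI 6 or GWI 7. Of 10 fibroblast genes 2, Dcn and Dpt, were lower (−0.75 and −0.76, adjusted p = 0.0119 and 0.0148). Their sum was 356, 776 and 1081 CPM in Control and 350, 553 and 944 CPM in GWI colons, with Col3a1 the most abundant (−0.34, adjusted p = 0.298). With the block on the sample name, limma-voom called 0 smooth muscle and 0 fibroblast genes, with 3 and 2 lower at an unadjusted p under 0.05. The median log2 fold changes of these lists were −0.85 and −0.37 under the block, against −0.91 and −0.35 by edgeR. With quality weights and no block, limma-voom called 10 smooth muscle and 7 fibroblast genes lower, beside 4180 of the 14146 genes tested.

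The members were also set against these sums within each mouse, over 25 ratios chosen after the data were seen. The log2 ratio of Ihh to the epithelial sum differed by 0.20 (exact permutation adjusted p = 0.263) and that of Ihh to the surface colonocyte sum by 0.43 (exact adjusted p = 0.190). Against the smooth muscle sum, Foxf1, Hhip, Gli1, Gli2 and Gli3 differed by 0.08, 0.11, 0.18, 0.10 and 0.01 (exact adjusted p = 0.870, 0.943, 0.891, 0.736 and 0.987). Smo differed by 0.44 and Ptch1 by 0.96 (exact adjusted p = 0.438 and 0.112). Against the fibroblast sum, Foxf1, Gli3, Gli2, Hhip and Gli1 were at −0.38, −0.45, −0.36, −0.35 and −0.28 (exact adjusted p = 0.0948, 0.168, 0.168, 0.560 and 0.732). Smo and Ptch1 were at −0.02 and 0.50 (exact adjusted p = 0.987 and 0.168). A single ratio passed, that of Ptch1 to the telocyte genes, at 0.23 (exact adjusted p = 0.0483), and it was lost without each of 15 mice, at an adjusted p of up to 0.114. Against the same telocyte sum, Foxf1, Hhip and Smo were at −0.64, −0.62 and −0.29 (exact adjusted p = 0.0948 for each). Gli1, Gli2 and Gli3 were at −0.55, −0.63 and −0.72 (exact adjusted p = 0.168, 0.212 and 0.168).

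A score of muscle minus epithelial genes was also entered as a covariate. It ran from −0.555 to 3.00 in Control and from −1.88 to −0.0965 in GWI colons, and Control 8 was the single Control colon inside the GWI range, so score and group were hard to separate. With it, edgeR called 0 genes, with 3130 at an unadjusted p under 0.05. Ihh was then at 0.35 (adjusted p = 0.237), Smo at −0.08 (0.820), Hhip at −0.43 (0.518) and Foxf1, with its sign turned, at 0.24 (0.401). Colons that share the first part of the sample name had a correlation of 0.62 in the fit with that block, where 1 member, Ihh, was called higher (0.52, adjusted p = 0.0434) and 0 of the 3 members called lower by edgeR passed. Beyond these values, the part of the marker levels and of the name parts in the result was not tested.

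**Figure D3:**
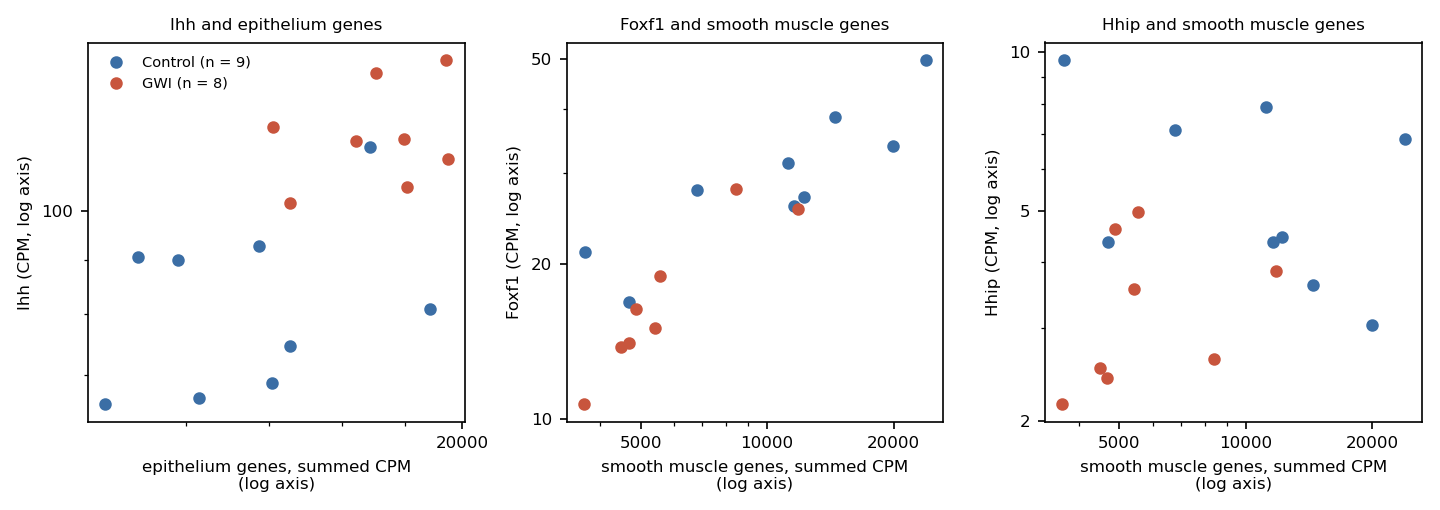
Level of Ihh against the summed level of 11 epithelial genes, and of Foxf1 and Hhip against the summed level of 10 smooth muscle genes, in each colon, with both axes in CPM on log scales. Points are single mice (9 Control, 8 GWI). By eye, Foxf1 tends to be higher where the smooth muscle sum is higher, but no correlation was computed. At muscle sums of 3690 CPM in Control 9 and 3658 CPM in GWI 3, Foxf1 was at 21.1 and 10.7 CPM. Hhip shows no such trend by eye. Among Control colons, Control 9 is highest in Hhip at 9.69 CPM and lowest in the muscle sum at 3690 CPM. Control 1 is lowest in Hhip at 3.03 CPM with the muscle sum at 19944 CPM.

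Markers of other cell types also differed. Of 7 telocyte genes 1 was lower, F3, also the most abundant (−0.30, adjusted p = 0.0474), with sums of 93.5 to 118.9 CPM in Control and 87.4 to 114.4 CPM in GWI colons. Sox6 of the same list went the other way, at 0.45, and did not pass (adjusted p = 0.0514). At an unadjusted p under 0.05, 1 telocyte gene was higher and 2 were lower. Of the glial genes only Cdh19, the one with the smallest p, is given here, so it does not stand for its list. Cdh19 was lower by edgeR (−1.29, adjusted p = 0.000947) and kept the call without each of the 17 mice. It also passed with the block on the sample name in limma-voom (−1.34, adjusted p = 0.0386). With the muscle minus epithelium score as covariate it did not pass in edgeR (−0.63, adjusted p = 0.186). Of 7 endothelial genes 3, Emcn, Prox1 and Kdr, were lower (−0.80, −0.90 and −0.74, adjusted p = 0.00468, 0.0116 and 0.0283), with Lyve1 the most abundant and sums of 64.0 to 293 and 63.7 to 125 CPM. Of 5 adipocyte genes 1, Cidec, was higher (0.99, adjusted p = 0.0365), with Cfd the most abundant and sums of 23.3 to 192.9 and 66.4 to 547 CPM. Of 4 small intestine genes tested, Alpi was higher (0.92, adjusted p = 0.0376) and Fabp6 lower (−4.40, adjusted p = 0.00880), while Sis was the most abundant, and Lct, Apoa1 and Apoa4 failed the filter. Fabp6 was at 314 CPM in Control 7 and 118.6 CPM in Control 6, at most 6.90 CPM in the other Control colons and at most 5.86 CPM in GWI colons. Without Control 7 its log2 fold change was −2.96 (adjusted p = 0.0189). With mice left out in turn, the telocyte list had 0 to 2 genes lower and 0 to 1 higher, and the endothelial list 2 to 5 lower (5 without Control 9). The adipocyte and small intestine lists then had 0 to 2 and 0 to 1 genes higher. The block on the sample name in limma-voom left 0 telocyte, 0 endothelial, 0 adipocyte and 0 small intestine genes called, with 1, 2, 1 and 1 at an unadjusted p under 0.05. With quality weights and no block, limma-voom called 4 telocyte and 6 endothelial genes lower. It called 1 adipocyte and 1 small intestine gene higher.

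No gene was called by edgeR among 7 surface colonocyte, 8 neuron and 4 mesothelial genes (0 in each, and 0 at an unadjusted p under 0.05), where Car1, Uchl1 and Upk3b were the most abundant. The same held for 5 crypt base and cycling genes, 3 genes of the interstitial cells of Cajal, 4 leukocyte genes and 4 distal Hox genes (0 in each), where 1 gene of each was lower at an unadjusted p under 0.05 and Mki67, Kit, Ptprc and Hoxa13 were the most abundant. With mice left out in turn, each of these lists had 0 to 1 genes called lower by edgeR. In the same order, limma-voom with quality weights called 1, 1, 2 and 1 genes lower. All 8 neuron genes had a negative log2 fold change, with a median of −0.58, and limma-voom with quality weights called 7 of them lower, at a median of −1.04. Without Control 1, 4 surface colonocyte genes were called higher by edgeR, and limma-voom with quality weights called 4. Squamous genes were near 0, with sums of at most 3.56 CPM, and 5 of 6 failed the filter, with Krt14 left.

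Promoter windows from RefSeq (build GRCm38.p6), covering 250 bases before the start of a gene and 50 after it, were found for 6 of the 9 members, Ihh, Ptch1, Smo, Gli2, Gli3 and Hhip. They were searched on both strands for the motif GACCACCCA, known for binding of Gli proteins, and for its core ACCACCC, which lies inside it. The longer motif was in none of the 6 windows (0 of 6) and in 0.253% of all 32851 windows. The core was in 1 window, that of Gli2, and in 4.61% of all windows. It is shown because Gli2 is itself a Gli gene, 5′ to 3′ on the minus strand, at chr1:119053793-119053849, with the core, here as its reverse complement, in capitals and its first base 205 bases before the start.
Gli2: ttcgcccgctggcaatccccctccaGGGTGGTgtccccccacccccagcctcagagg
A match of letters is a description and shows no binding.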

How the data were processed

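Poly(A)-selected RNA of 17 colons was sequenced as paired-end reads. The authors removed adapters with Trimmomatic 0.36, aligned reads by STAR 2.5.2b against GRCm38, and assigned uniquely mapped reads to genes with featureCounts; the strand setting and annotation release are not given in the sources used here. They deposited raw counts per gene, without normalization. All 17 columns matched a mouse.

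Counts were filtered with filterByExpr, scaled by TMM and tested with edgeR 4.0.16 (quasi-likelihood, robust), with the group as the only term, in R 4.3.3. Adjustment was Benjamini-Hochberg, over 14146 genes. Standard errors came from dividing each log2 fold change by the square root of its F. Ratios of CPM plus 0.5 and correlations of log2 CPM (prior count 2) were tested by exact permutation, written in Python 3.11.15 with numpy 2.4.6. Ranks came from scipy 1.17.1. Ratios to a marker sum had no pseudocount. Alternatives used DESeq2 1.42.0, limma 3.58.1 and the settings of the closing section. Scripts were tested on simulated data. Exon positions came from GENCODE M21.

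Named genes were the 9 members, all list genes with an adjusted p under 0.05 (at most 6 a list), the 3 genes most like each member, and for each cell type the most abundant gene and up to 2 with the smallest p. Other list genes were named after their values were seen. The leukocyte gene Itgam has several entries and was left out, and Mosmo was not analysed here. The members and lists were chosen with earlier results of these data known.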

Additional observations from a re-analysis of the deposited data

Results flagged for a closer look

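A mouse was listed where its gap to the nearest mouse of its group was large against the whole range of that group. Of 50 groups of values tested, 8 held such a mouse, in each the highest of its group. Chance alone gives about 1 in 20 groups only where values follow a normal distribution. The summed levels were not checked for this, so the 8 are a description. None was a level of a member (0 of 9 genes in either group).

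Distal colon Hox genes summed to 129.1 CPM in Control 1, with the next Control colon at 15.5 CPM, and to 88.1 CPM in GWI 5, with the next GWI colon at 18.8 CPM. Shh was lowest in these colons of each group, at 1.01 and 1.77 CPM. Mesothelial genes were also highest in Control 1, at 28.2 CPM, with the next at 15.0 CPM. Surface colonocyte genes summed to 33949 CPM in Control 9, far above the next Control colon at 20923 CPM. In Control 6, endothelial genes were at 293 CPM (next 157 CPM), and small intestine genes in Control 7 were at 674 CPM (next 251 CPM). GWI 7 stood apart in adipocyte genes, at 547 CPM (next 249 CPM), and in squamous genes, at 3.56 CPM (next 2.21 CPM). What set these colons apart was not tested.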

How the results depend on the processing

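Ihh passed in all 17 fits without 1 mouse and in 14 of 15 other settings, and Foxf1 in all 17 and in 12 of 15. Where a call or sign turned below, the cause was not tested. By edgeR, 1 member was higher and 3 were lower. Lower members numbered 6 with upper-quartile factors, 6 by the DESeq2 Wald test, 5 with limma-voom quality weights, 5 without Control 1 and GWI 5 (chosen after seeing the data), and 1 to 5 with each mouse left out. With a block on the sample name there were 0. With the muscle covariate, and under the test of unadjusted p under 0.05 with an absolute log2 fold change over 1, there were 0 higher and 0 lower.

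Of the other pathway genes 3 were higher and 12 lower. Higher genes numbered 1 with upper-quartile factors, with library size alone and with no filter, 5 with voom weights, 6 with the fibroblast covariate, 0 with the muscle covariate or the name block, and 1 to 4 with mice left out. Lower genes numbered 20 with voom weights, and 0 with the muscle covariate or the name block. Over all genes, voom weights gave 3911 higher and 4180 lower, and the name block 376 and 94. Leaving out each mouse gave 4 to 8 epithelial genes higher and 2 to 10 smooth muscle genes lower.

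Mice of the groups share replicate numbers. Residuals of same-numbered mice correlated at −0.506 to 0.115, 1 of 8 pairs was over 0.1, and 0 correlated best with their own number, so the numbers show no pairing. With the replicate block, which leaves Control 9 without a partner, 1 member was higher and 0 were lower, other pathway genes numbered 1 higher and 4 lower, and all genes 1415 and 826. Ihh was at 0.49 (adjusted p = 0.0117 by edgeR), Smo at −0.41 (0.108), Hhip at −0.63 (0.158) and Foxf1 at −0.83 (0.0562).

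Shh turned to −0.0768 with upper-quartile factors, −0.49 with the muscle covariate, −0.22 with the fibroblast covariate and −0.0459 without Control 1 and 9 (chosen after seeing the data), and lay between −0.10 and 0.13 with each mouse left out. With the muscle covariate the sign also turned for Gli2 (0.36), Gli3 (0.55), Foxf1 (0.24), Scube2 (0.36), Gas1 (0.31), Evc (0.32), Evc2 (0.18) and Rab34 (0.0755). Smo was also lost with library size alone (adjusted p = 0.0706 by edgeR), no filter (0.0527), the fibroblast covariate (0.0712) and the small intestine covariate (0.0654).

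All 9 member ratios that passed did so without each mouse and with a pseudocount of 2 CPM, and 0 of 8 relations passed in any setting run. Neither ratios nor relations were run with the block on the sample name. Values that turned sign with mice left out ran from −0.14 to 0.29 for Gli1 to Gli2. In Control colons Ihh with Ptch1 ran from −0.10 to 0.36, with Gli1 from −0.18 to 0.40 and with Foxf1 from −0.31 to 0.0888 (0.29 with library size alone). In GWI colons Ihh ran from −0.41 to 0.28 with Ptch1, from −0.46 to 0.32 with Gli1 and from −0.20 to 0.50 with Hhip. Ratios to marker sums ran from −0.22 to 0.19 for Shh to surface colonocyte and −0.12 to 0.10 for Smo to fibroblast genes. Against smooth muscle they ran from −0.0241 to 0.46 for Gli1, −0.0459 to 0.13 for Gli3, −0.11 to 0.40 for Hhip and −0.00662 to 0.21 for Foxf1.

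Limits are the groups of 9 and 8 mice, a single tissue and time point, name parts that no group shares, and RNA alone, with no protein or cell count. Gli1 and Gli2 had as few as 23 and 12 counts in a colon, so small changes in them could not be seen.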
